A study of Mus musculus with 24 samples.

Results

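The 5 genes that encode subunits of the IL-12 cytokine family, Il12b, Il12a, Il23a, Il27 and Ebi3, were followed through 24 RNA-seq libraries of bone marrow-derived macrophages (BMDMs), cells differentiated from mouse marrow in culture. They are 5 of the 18063 genes listed for the 12 M1 libraries and of the 17786 listed for the 12 M2 libraries. The family was chosen by its names and after Il12b was known to differ between these groups, so its values in DA-treated M1 WT BMDMs are a description and carry no test. The libraries came from WT and DRD5-/- mice of the C57BL/6 strain, 10 weeks old, where DRD5 is a dopamine receptor that signals through cyclic AMP. M1 BMDMs received IFN-γ at 50 ng/ml together with 100 ng/ml of LPS, a bacterial product, and M2 BMDMs received IL-13 and IL-4, each at 10 ng/ml. Stimulation lasted 12 h, with dopamine (DA) or without it. Each stimulus had 4 groups of 3 libraries, DRD5-/- and WT BMDMs either left untreated or treated with DA, which makes 8 groups in all. Every group thus carries a cytokine or LPS stimulus, and none holds resting cells. The methods describe marrow flushed from tibias and femurs and grown with L929-conditioned medium, the labels give bone as the tissue, and the growth notes name colons as the source. No source says whether the 3 libraries of a group came from separate mice, so the spread between them may be technical.

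Cytokines of this family are pairs of an α chain and a β chain. Il12b encodes the p40 β chain, which pairs with p35 (Il12a) to form IL-12 and with p19 (Il23a) to form IL-23. Ebi3 encodes a second β chain, which pairs with p28 (Il27) to form IL-27 and with p35 to form IL-35. IL-12 drives Th1 cells and IFN-γ, IL-23 sustains Th17 cells, and IL-27 has both activating and restraining effects on T cells. Macrophages and dendritic cells are known sources of these cytokines after microbial stimuli.

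In the GRCm38 annotation of GENCODE M21, Il12b (gene ID 16160) lies at chr11:44400063-44414033 on the plus strand and Il12a (16159) at chr3:68690644-68698547 on the plus strand. Il23a (83430) lies at chr10:128296139-128298752 on the minus strand, Il27 (246779) at chr7:126589010-126594941 on the minus strand and Ebi3 (50498) at chr17:55952640-55957022 on the plus strand. All 5 are protein-coding, each on its own chromosome. The end of Il27 overlaps the end of Apobr, on the opposite strand, by 103 bases, and Ebi3 overlaps the antisense gene Gm16712. The counting is not stated to use strand, so reads in these overlaps cannot be assigned to 1 gene. The files listed Apobr at 23.25 to 24.60 FPKM in untreated M1 WT and 31.14 to 33.63 FPKM in DA-treated M1 WT BMDMs, while Il27 was lower in the latter group.

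Promoters are shown for the β chain genes Il12b and Ebi3, which like Il27 were lower in DA-treated M1 WT BMDMs. They run from 250 bases before to 50 bases after the start site, as given by RefSeq for GRCm38.p6, at chr11:44399813-44400112 (Il12b) and chr17:55952373-55952672 (Ebi3), both on the plus strand. Promoters of 3 of the 5 genes were matched by gene ID, Il12b, Ebi3 and Il12a, the last with more than 1 start site, and Il27 and Il23a had no entry. Capitals mark matches to the motifs searched on both strands, and no match overlapped another.
Il12b: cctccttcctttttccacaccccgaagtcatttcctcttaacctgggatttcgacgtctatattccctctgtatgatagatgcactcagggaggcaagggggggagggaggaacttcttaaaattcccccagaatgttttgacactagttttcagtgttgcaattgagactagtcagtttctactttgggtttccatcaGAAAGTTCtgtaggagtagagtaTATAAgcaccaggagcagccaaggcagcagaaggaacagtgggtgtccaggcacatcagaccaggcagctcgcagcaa
Ebi3: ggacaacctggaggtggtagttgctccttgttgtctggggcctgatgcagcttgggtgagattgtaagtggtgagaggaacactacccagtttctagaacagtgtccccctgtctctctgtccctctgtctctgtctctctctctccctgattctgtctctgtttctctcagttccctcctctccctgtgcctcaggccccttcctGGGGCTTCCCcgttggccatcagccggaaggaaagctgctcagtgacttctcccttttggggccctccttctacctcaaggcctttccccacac
In Il12b the capitals are a pair of heat shock repeats, GAANNTTC, starting at position -51 from the start site, and a TATA motif, TATAA, at position -28. In Ebi3 they are a κB consensus motif at position -44. Of 32851 promoter windows of this length, 7.86% held GAANNTTC, 24.9% TATAA and 4.51% the κB consensus. The other motifs searched, which had no match in either promoter, were GAAANNGAA (IRF), TGANTCA (AP-1), TGACG (part of a cAMP response element), GAGGAAGT (PU.1) and the C/EBP consensus. The heat shock pair was added to the search after Hspa1a and Hspa1b were seen to be like Il12b. A match is a string of letters and not a measured site. A site that differs from these strings would be missed, so no match does not mean that no site is there.

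The unit of every level is FPKM, fragments scaled by transcript length and library size, which allows levels of different genes to be set side by side. A library held 9774 to 9879 genes at 1 FPKM or more in M1 and 10349 to 10444 in M2. No read counts were in the files. Genes listed in few reads gave a relative depth between 0.95 and 1.02 within M1 and between 0.86 and 1.02 within M2, so no library was far shallower than the others of its stimulus. Drd5, the targeted gene, had no row in the M1 files and was at 0 in 10 of 12 M2 libraries, with 0.06 FPKM as its highest value, so the genotype could not be checked from it. The libraries went with their stimulus labels: Nos2 ranged from 1669 to 2007 FPKM in M1 and from 0.01 to 0.33 FPKM in M2, and the M2 gene Mrc1 from 10.37 to 19.26 FPKM in M1 and from 244.6 to 540.7 FPKM in M2. All 7 macrophage markers were above 1 FPKM in every library, Csf1r and Lyz2 among them.

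Il12b was a gene of M1 BMDMs. Its FPKM was 19.94, 20.25 and 20.03 in untreated M1 WT libraries, 4.55, 4.28 and 4.69 with DA, 17.86, 18.72 and 19.07 in untreated M1 DRD5-/- libraries and 18.44, 18.70 and 18.45 with DA. The 3 DA-treated WT libraries stood below the other 9, with no overlap. In M2 it was listed at 0 in 11 of 12 libraries and at 0.02 FPKM in the other. The mean in DA-treated M1 WT (4.51 ± 0.208 FPKM, SD, n = 3) was 22.5% of that in untreated M1 WT (20.07 ± 0.159 FPKM) and 24.3% of that in DA-treated M1 DRD5-/- BMDMs (18.53 ± 0.147 FPKM). On the log2(FPKM + 1) scale, which understates changes of low genes, this was a difference of -1.94 ± 0.039 (SE) with DA in WT. It was the third largest fall among the 10040 genes tested. This rank is no support, because Il12b was known to differ before the family was chosen.

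Il27, the α chain that pairs with Ebi3, was higher than Il12b in all M1 libraries. It measured 52.83, 51.57 and 49.47 FPKM in untreated M1 WT, 23.14, 22.88 and 22.46 FPKM with DA, 50.77, 55.31 and 53.40 FPKM in untreated M1 DRD5-/- and 51.78, 46.71 and 47.47 FPKM in DA-treated M1 DRD5-/- BMDMs. The DA-treated WT libraries were again the lowest and did not overlap the others, while the remaining 3 groups overlapped one another. The DA-treated WT mean (22.83 ± 0.343 FPKM, SD, n = 3) was 44.5% of the untreated WT mean (51.29 ± 1.70 FPKM) and 46.9% of the DA-treated DRD5-/- mean. The log2 difference with DA in WT was -1.13 ± 0.042 (SE).

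Ebi3 was the most abundant subunit in all 24 libraries and the only one above 1 FPKM in M2. It measured 175.8, 170.5 and 159.9 FPKM in untreated M1 WT, 119.5, 115.9 and 123.1 FPKM with DA, 186.2, 191.0 and 196.2 FPKM in untreated M1 DRD5-/- and 193.9, 190.8 and 183.2 FPKM in DA-treated M1 DRD5-/- BMDMs. The DA-treated WT libraries were below all others of M1 and the untreated WT libraries below both DRD5-/- groups. The DA-treated WT mean (119.5 ± 3.63 FPKM, SD, n = 3) was 70.8% of the untreated WT mean (168.7 ± 8.11 FPKM) and 63.1% of the DA-treated DRD5-/- mean. The log2 difference with DA in WT was -0.49 ± 0.037 (SE), so the falls differed in size among the 3 subunits: Il12b had the largest and Ebi3 the smallest.

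**Figure D1:**
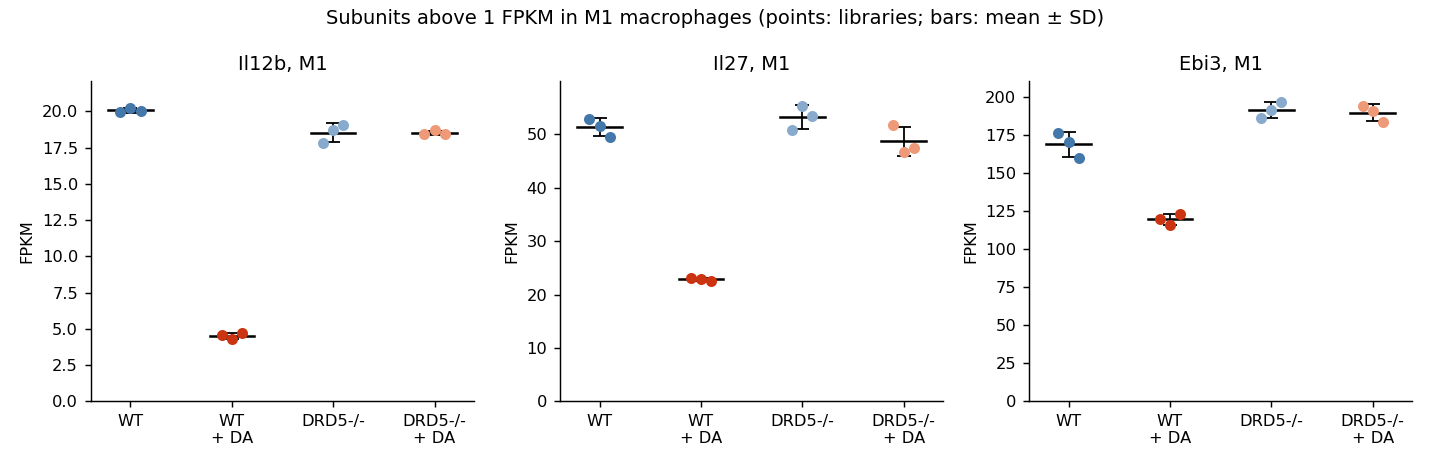
FPKM of Il12b, Il27 and Ebi3 (vertical axes, linear, from 0) in the 12 M1 libraries, by genotype and DA; points are libraries and black bars the mean ± SD of 3. The DA-treated WT libraries are the lowest for all 3 genes, at 4.28 to 4.69, 22.46 to 23.14 and 115.9 to 123.1 FPKM.

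The 2 chains that would complete IL-12 and IL-23 were below 1 FPKM in all 24 libraries. Il12a, the p35 chain, measured 0.08, 0.12 and 0.32 FPKM in untreated M1 WT, 0.08, 0.04 and 0 FPKM with DA, 0, 0.08 and 0.12 FPKM in untreated M1 DRD5-/- and 0, 0.17 and 0.09 FPKM in DA-treated M1 DRD5-/- BMDMs. Il23a, the p19 chain, measured 0.28, 0.07 and 0.28 FPKM in untreated M1 WT, 0, 0.18 and 0.14 FPKM with DA, 0, 0 and 0.07 FPKM in untreated M1 DRD5-/- and 0.04, 0.04 and 0 FPKM in DA-treated M1 DRD5-/- BMDMs. The groups overlapped between neighbours for both genes, and single steps of 0.04 FPKM show that few reads stood behind each value. In M2, Il12a was above 0 in 1 library and Il23a in 2, each time at 0.04 FPKM. Neither gene passed the filter of 1 FPKM in 3 libraries, so no test was made, and a difference between groups was not detectable at this depth.

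Il27 was also below 1 FPKM in M2. It measured 0.35, 0 and 0.26 FPKM in untreated M2 WT, 0.58, 0.65 and 0.38 FPKM with DA, 0.43, 0.48 and 0.37 FPKM in untreated M2 DRD5-/- and 0.32, 0.52 and 0.35 FPKM in DA-treated M2 DRD5-/- BMDMs. The untreated WT libraries lay lowest and overlapped neither DA-treated WT nor untreated DRD5-/- libraries, but all were under the filter and no difference was tested. Ebi3 in M2 measured 30.94, 31.26 and 27.12 FPKM in untreated WT, 34.22, 30.27 and 34.65 FPKM with DA, 29.10, 24.66 and 26.45 FPKM in untreated DRD5-/- and 27.86, 28.23 and 26.70 FPKM in DA-treated DRD5-/- BMDMs. The DA-treated WT libraries lay highest and did not overlap either DRD5-/- group, while they overlapped the untreated WT libraries.

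**Figure D2:**
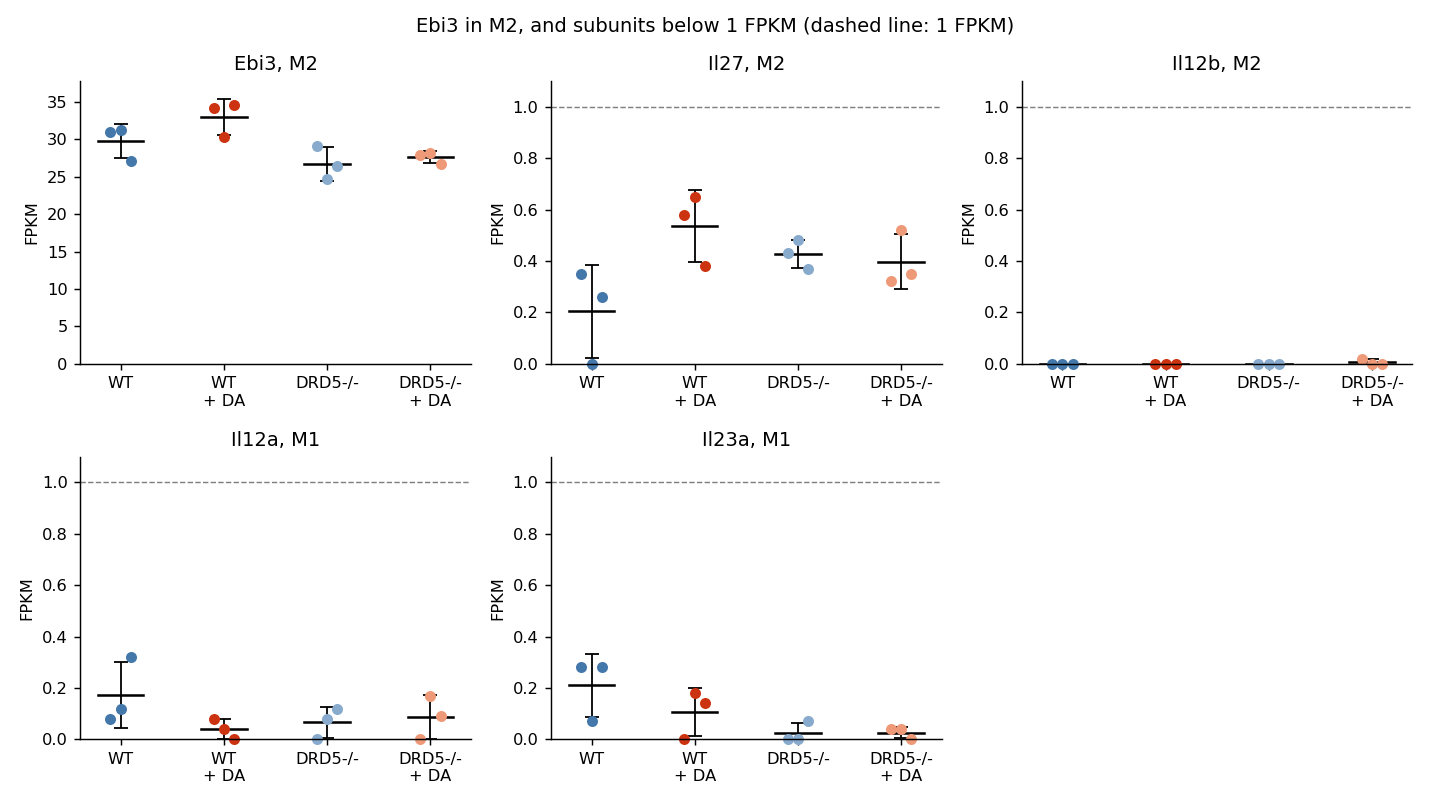
FPKM (vertical axes, linear, from 0) of Ebi3 in M2 and of the subunits below 1 FPKM, by genotype and DA; points are libraries, black bars the mean ± SD of 3 and the dashed line 1 FPKM. Ebi3 holds 24.66 to 34.65 FPKM in M2, while Il12a, Il23a and the M2 values of Il27 and Il12b stay at 0.65 FPKM or lower.

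Set in order of their means, the 8 groups fell into the same broad pattern for Il12b, Il27 and Ebi3: 3 M1 groups, then DA-treated M1 WT, then the 4 M2 groups. For Il12b, untreated M1 WT came first and did not overlap untreated M1 DRD5-/-, which overlapped DA-treated M1 DRD5-/-. For Il27, the first 3 groups overlapped as neighbours. For Ebi3, both M1 DRD5-/- groups came first and overlapped each other, followed by untreated M1 WT with no overlap. The M2 groups overlapped as neighbours for all 3 genes. Mean Ebi3 was 5.67 ± 0.516 times higher in M1 than in M2 for untreated WT, 3.62 ± 0.286 times for DA-treated WT, 7.15 ± 0.626 times for untreated DRD5-/- and 6.86 ± 0.281 times for DA-treated DRD5-/- BMDMs (error from the SDs of both means, n = 3 each). The M1 and M2 files list different genes and may come from separate runs. The stimulus and the set of files cannot be told apart, so no test was made between them. Median-of-ratios scaling over all 24 libraries raised these ratios to 7.74, 5.21, 9.55 and 9.34.

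The balance between partner chains could be formed only for IL-27, because the partners of Il12b were below 1 FPKM. Ebi3 was 3.29 ± 0.050 times Il27 in untreated M1 WT, 5.24 ± 0.218 times in DA-treated M1 WT, 3.599 ± 0.125 times in untreated M1 DRD5-/- and 3.90 ± 0.173 times in DA-treated M1 DRD5-/- BMDMs (ratio of FPKM within a library, SD, n = 3). The DA-treated WT libraries, at 5.06 to 5.48, lay above the other 9, at 3.23 to 4.08. This restates the unequal falls of the pair and is given without a test.

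The comparison of DA-treated with untreated WT asks what DA did to M1 and M2 BMDMs, and the same comparison in DRD5-/- BMDMs asks whether it needs the receptor. Under each stimulus, limma was run on the genes that reached 1 FPKM in 3 or more of its 12 libraries. A gene was called where its adjusted p was below 0.001 and it changed by 1.2-fold or more. Il12b, Il27 and Ebi3 passed this filter in M1 and only Ebi3 in M2. In M1 WT, 14.3% of the 10040 tested genes were called with DA, and the values of the 3 subunits there are those described above. Of these calls 33.0% were higher with DA, or 55.7% after median-of-ratios scaling, under which the 3 subunits stayed lower. In DRD5-/- BMDMs, DA called 0% of the tested M1 genes by limma, against 569 genes at an unadjusted p under 0.05. The log2 change with DA in M1 DRD5-/- was -0.001 for Il12b (95% interval -0.085 to 0.083, adjusted p = 1), -0.126 for Il27 (-0.216 to -0.036, adjusted p = 0.851, unadjusted p = 0.00955) and -0.014 for Ebi3 (-0.092 to 0.065, adjusted p = 0.970), none past the threshold. For Il12b and Ebi3 the intervals leave room for a change of less than 0.1 in either direction. For Il27 the interval lies below 0, down to -0.22, before adjustment over the genes tested. The difference of the DA effects, WT minus DRD5-/-, was -1.94 ± 0.055 for Il12b, -1.01 ± 0.060 for Il27 and -0.48 ± 0.052 for Ebi3 on the log2 scale (SE, a description), in a comparison that called 8.38% of all tested genes, 38.2% of them positive or 63.8% after scaling. This comparison shares both WT groups with the first and both DRD5-/- groups with the second, so the 3 sets of values are not independent.

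The genotypes were compared in both treatment states. In untreated M1 BMDMs, where 0.936% of tested genes were called, Ebi3 was 0.18 ± 0.037 higher in DRD5-/- on the log2 scale (SE, adjusted p = 0.00653), with no overlap of libraries. Il12b differed by -0.11 (adjusted p = 0.0951), also with no overlap, and Il27 differed by 0.05 (adjusted p = 0.490), so 0 of the 3 passed the threshold of limma. An unadjusted p under 0.05 was reached by 2 of 3, Ebi3 and Il12b, and by 2557 of the 10040 tested genes. The share of all tested genes whose groups do not overlap was not counted for any comparison, so separate ranges are a description only. Among DA-treated M1 BMDMs, WT against DRD5-/-, 18.5% of genes were called, 32.1% of them higher in WT or 52.5% after scaling, and the differences were -1.83 ± 0.039 for Il12b, -1.06 ± 0.042 for Il27 and -0.66 ± 0.037 for Ebi3 (SE, a description).

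In M2 only Ebi3 could be tested. Of the 10735 genes tested there by limma, 4021 to 8424 had an unadjusted p under 0.05, depending on the comparison. Ebi3 had such a p in 3 of the 5 comparisons and passed the threshold in none. With DA it changed by 0.15 ± 0.066 (log2, SE) in WT (adjusted p = 0.0583), in a comparison that called 46.3% of tested genes, and by 0.05 in DRD5-/- (adjusted p = 0.623), where 4.02% were called, 83.8% of them higher or 69.7% after scaling. Between untreated genotypes it differed by -0.15 (DRD5-/- against WT, adjusted p = 0.111), where 5.51% were called, 24.8% of them higher in DRD5-/- or 40.2% after scaling. Between DA-treated genotypes it was 0.25 higher in WT (adjusted p = 0.00329), with no overlap of libraries, where 49.7% were called. This value reached 0.31 and passed the threshold without the second DA-treated M2 WT library. The difference of the DA effects was 0.10 (95% interval -0.10 to 0.30, adjusted p = 0.358), where 43.2% were called.

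**Figure D3:**
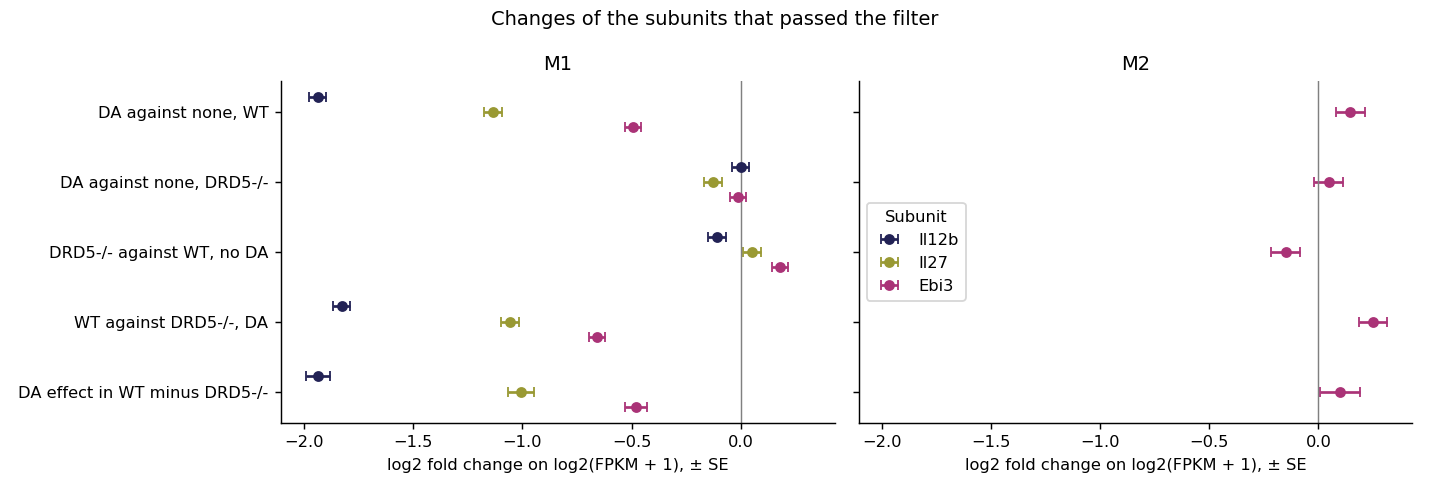
Log2 fold changes on log2(FPKM + 1) (horizontal axis) of the subunits that passed the filter, in 5 comparisons per stimulus (rows); points are limma estimates and bars ± SE. In M1 the comparisons that hold DA-treated WT stand between -1.94 and -0.48, and in M2 Ebi3 stays between -0.15 and 0.25.

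The receptors and signal transducers of the family were read in the same libraries, from a list chosen with earlier results of these data known. Of 11 genes, 10 were tested in M1, and 4 passed the threshold with DA in WT, where 14.3% of all tested genes were called. Stat4, the transducer of IL-12, fell by 0.61 ± 0.073 (log2, SE, adjusted p = 9.81e-06) and Stat3, used by IL-23 and IL-27, fell by 0.36 ± 0.030 (adjusted p = 2.22e-07). Jak2, a kinase bound to these receptors, fell by 0.35 (adjusted p = 3.17e-05), and Il6st, the gp130 chain shared by IL-27 and IL-6 receptors, rose by 0.42 (adjusted p = 5.59e-06). The list's median change was -0.06, beside -0.07 over all tested genes. The receptor chains Il12rb1 (14.97 FPKM in untreated M1 WT, 13.90 FPKM with DA) and Il23r (4.48 and 4.70 FPKM) were not past the threshold, and Il27ra was below 1 FPKM in M1; these 3 are named for their role and after their values were seen. In M1 DRD5-/- BMDMs, 0 of 10 passed with DA, as for every related list there.

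Among 19 genes known to activate transcription of the subunits, 5 passed with DA in M1 WT, 3 lower and 2 higher, with a median of -0.01. Over all tested genes the share called was 14.3%, with 9.60% lower and 4.73% higher. Batf, an AP-1 family factor, fell by 0.81 ± 0.042 (SE, adjusted p = 2.55e-09), from a mean of 27.85 to 15.52 FPKM. Irf8, which binds the Il12b promoter in macrophages, fell by 0.42 (adjusted p = 1.32e-08), and Nfkb1, the p50 subunit of NF-κB, fell by 0.28 (adjusted p = 4.13e-06), a call that median-of-ratios scaling removed. Jun and Ets2 rose by 0.26 and 0.28 (adjusted p = 1.27e-05 and 4.36e-05). Rel, the NF-κB subunit tied most closely to Il12b, was at 7.34 FPKM without and 7.45 FPKM with DA, and Nfkbiz at 17.30 and 17.75 FPKM. Neither passed the threshold, and both were named after their values were seen.

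Among 20 genes known to restrain the subunits, 8 passed with DA in M1 WT, 7 lower and 1 higher, with a median of -0.02. The share over all tested genes was again 14.3%, with 9.60% lower and 4.73% higher. Socs3, a feedback inhibitor of STAT3 signalling, fell by 0.59 ± 0.023 (SE, adjusted p = 1.20e-10), Nfil3, a repressor of Il12b, fell by 0.51 (adjusted p = 1.37e-08), and Bcl3, a nuclear IκB protein, fell by 0.37 (adjusted p = 9.97e-07). Nr4a1 fell by 0.43 (adjusted p = 0.000203) and Zfp36, whose product destabilises cytokine mRNAs, fell by 0.35 (adjusted p = 4.30e-06). Ptger2, a receptor for prostaglandin E that raises cyclic AMP, rose by 0.45 (adjusted p = 0.000418). Il10, which represses Il12b, was at 11.74 FPKM without and 14.27 FPKM with DA and did not pass (adjusted p = 0.0024), although it did after scaling, and it too was named after its values were seen. Scaling left 8 called, 5 lower and 3 higher. Both lists thus held genes that were lower and genes that were higher.

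Relatives of the subunits in structure were tested for 5 of 8 genes, and 3 passed with DA in M1 WT. That comparison called 14.3% of all tested genes. Il6, a four-helix cytokine akin to the α chains, fell by 0.75 ± 0.070 (SE, adjusted p = 9.03e-07), from 22.03 to 12.73 FPKM. The study itself reports this fall of Il6 from these data, so the p is no independent support. Osm fell by 0.32 (adjusted p = 9.86e-05), a call that scaling removed, and Clcf1 rose by 0.54 (adjusted p = 0.00011) from 1.06 to 1.99 FPKM. Of the ER chaperones, which fold secreted heterodimers, 0 of 6 passed by limma with DA in M1 WT, and 2 of 6 passed, both higher, after scaling. By size, Il12b and Il27 fell by more than any gene of these lists. This is a description only, because the family was chosen after Il12b was known to differ.

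The difference of the DA effects between genotypes in M1 passed the threshold for 11 of the 60 tested genes of the 5 lists, all of them lower with DA in WT relative to DRD5-/-, where 8.38% of all tested genes were called. They were 3 of 10 receptor and transducer genes, 3 of 19 activators, 4 of 20 inhibitors, 1 of 5 relatives and 0 of 6 chaperones. That all calls were lower holds for the values as deposited only, although no called gene changed sign. After median-of-ratios scaling, 3 chaperones, 2 activators and 1 receptor or transducer gene were called higher, while 2 activators, 2 inhibitors, 1 relative and 1 receptor or transducer gene were called lower. In untreated M1 BMDMs, Bcl3 was the only list gene that differed between genotypes, 0.30 ± 0.035 higher in DRD5-/- (SE, adjusted p = 0.000136), a call lost without the second untreated DRD5-/- library. Among DA-treated M1 BMDMs, 3 receptor and transducer genes, 5 activators, 10 inhibitors, 3 relatives and 1 chaperone, Pdia3, passed.

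**Figure D4:**
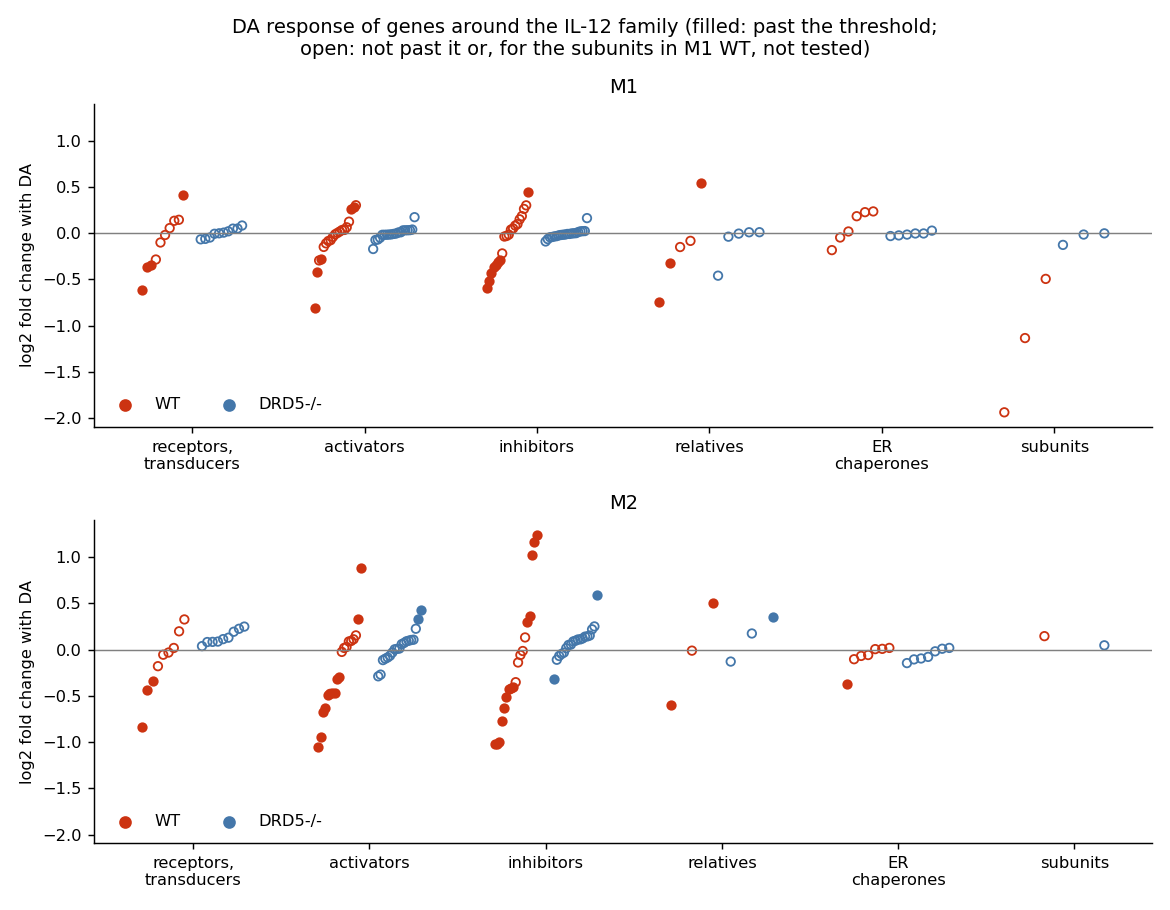
Log2 fold change with DA (vertical axis) for each tested gene of 5 related lists and for the subunits (horizontal axis), in M1 (top) and M2 (bottom), WT in red and DRD5-/- in blue; filled points passed the threshold. In M1 no DRD5-/- point is filled, and in WT the lists span -0.81 to 0.54 while Il12b lies at -1.94; in M2 the lists span -1.06 to 1.24 in WT and Ebi3 lies at 0.15.

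In M2 WT, where Ebi3 did not pass, 46.3% of all tested genes were called with DA, and the counts of the lists are read against that share. DA changed 3 of 9 receptor and transducer genes, all lower, 11 of 19 activators, 9 lower and 2 higher, 14 of 19 inhibitors, 9 lower and 5 higher, 2 of 3 relatives and 1 of 7 chaperones. The receptor and chaperone lists lay below that share, and the activators, inhibitors and relatives above it. The lists are short, and none was tested as a set. Stat3 fell by 0.84 ± 0.031 (SE, adjusted p = 1.04e-11) and Il27ra, the IL-27 receptor chain, fell by 0.44 (adjusted p = 7.07e-05), from 3.58 to 2.38 FPKM. Nfkbiz, an activator, fell by 1.06 (adjusted p = 2.85e-09) and Map3k8 fell by 0.94 (adjusted p = 1.53e-08), while Ets2 rose by 0.88 (adjusted p = 1.44e-11). Of the inhibitors, Maf and Il10 rose by 1.24 and 1.17 (adjusted p = 1.57e-12 and 5.07e-07), while Nr1h3 and Pparg, nuclear receptors, both fell by 1.02 (adjusted p = 2.74e-10 and 1.48e-12). The rise of Il10 is reported by the study itself from these data, so its p is no independent support. In DRD5-/- M2 BMDMs, DA changed 0 of 9 receptor genes, Rel and Ets2 among the activators, Ahr and Nr1h3 among the inhibitors and Il6ra among the relatives. Between untreated M2 genotypes, Ets2 passed among the activators and Nr1h3 and Socs3 among the inhibitors, and among DA-treated ones 4, 11, 16, 2 and 0 genes of the lists, in the order above. In M2 the difference of the DA effects passed for 4 of 9 receptor genes, 9 of 19 activators, 12 of 19 inhibitors, 2 of 3 relatives and 0 of 7 chaperones.

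For each subunit, the 3 tested genes most like it over the 12 libraries of a stimulus were found by Pearson's r of log2(FPKM + 1). For Il12b they were Hspa1b (r = 0.998), Enpp2 (r = 0.997) and Hspa1a (r = 0.996). Hspa1a and Hspa1b encode near-identical inducible HSP70 proteins, so their reads may be split between them, and Enpp2 encodes autotaxin, which makes lysophosphatidic acid. Hspa1a was at 91.24 ± 4.84 FPKM in untreated M1 WT and 9.88 ± 0.098 FPKM with DA, and at 94.08 ± 0.578 and 95.66 ± 2.90 FPKM in DRD5-/- BMDMs (SD, n = 3). Enpp2 was at 11.13 ± 0.381 and 2.96 ± 0.081 FPKM in WT and at 10.74 ± 0.239 and 11.13 ± 0.510 FPKM in DRD5-/- BMDMs. The likeness rests on the 3 DA-treated WT libraries standing apart: 934 genes reached r of 0.9 with Il12b, and over the other 9 libraries r was 0.10 for Hspa1b, 0.17 for Enpp2 and -0.45 for Hspa1a.

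Il27 was most like Ccrl2 (r = 0.997), Ahsa1 (r = 0.995) and F10 (r = 0.994), and 926 genes reached r of 0.9. Ahsa1 is a co-chaperone of HSP90, F10 is coagulation factor X and Ccrl2 is a chemerin-binding receptor. Ccrl2 was at 98.47 ± 0.600 FPKM in untreated M1 WT and 66.83 ± 1.23 FPKM with DA, a smaller fall than that of Il27. Over the 9 libraries outside DA-treated WT, r was 0.83 for Ccrl2, 0.74 for Ahsa1 and 0.93 for F10.

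Ebi3 in M1 was most like Fscn1 (r = 0.995), Klhdc3 (r = 0.995) and Vasp (r = 0.991), where Fscn1 bundles actin filaments and Vasp promotes their elongation. These genes shared the lower level of untreated WT: Fscn1 was at 26.36 ± 0.851 FPKM in untreated WT, 16.59 ± 0.203 FPKM with DA and 32.43 ± 1.18 and 32.42 ± 0.777 FPKM in untreated and DA-treated DRD5-/- BMDMs. Over the 9 other libraries r stayed at 0.96, 0.95 and 0.92. Between the subunits, r over 12 libraries was 0.99 for Il12b and Il27, 0.95 for Il27 and Ebi3 and 0.94 for Il12b and Ebi3, and over the other 9 libraries 0.16, 0.19 and -0.74. In M2, Ebi3 was most like Tmem184b (r = 0.903), Gatad2a (r = 0.899) and Mrps2 (r = 0.898), and 1 gene reached r of 0.9. All these values share libraries and were picked as the highest of 10039 genes in M1 and 10734 in M2, so no p is given.

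**Figure D5:**
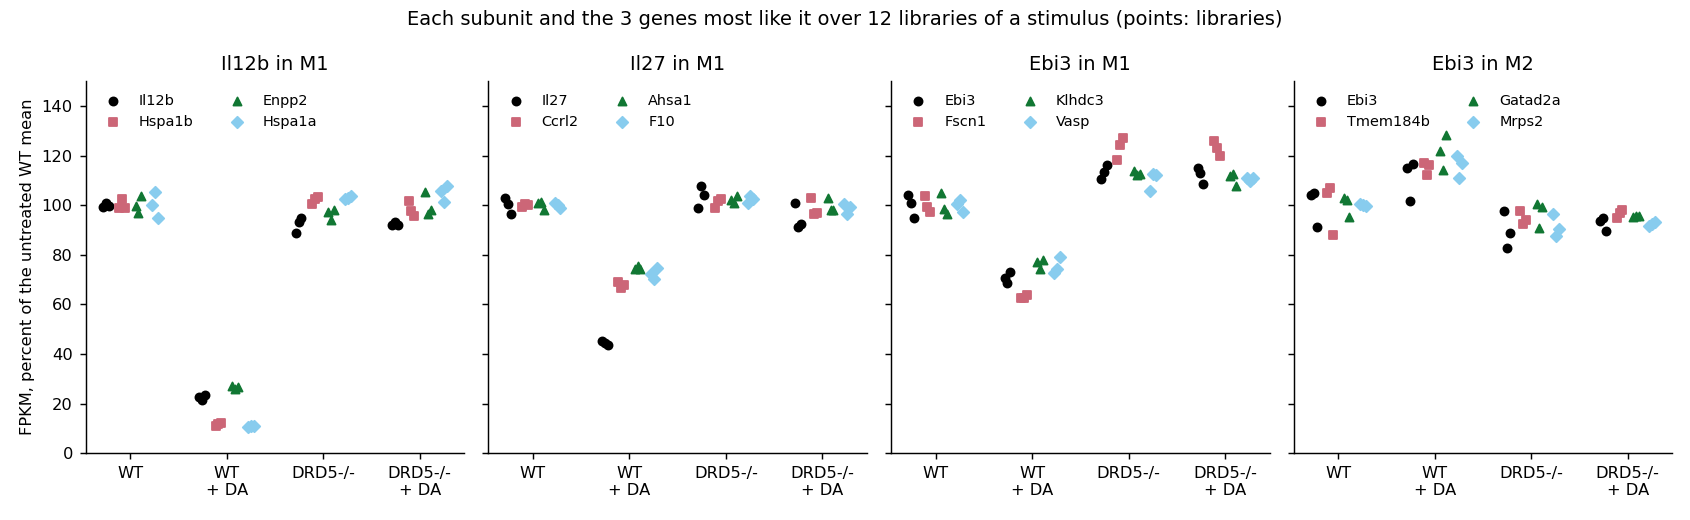
FPKM as percent of the untreated WT mean of the same gene (vertical axis, from 0) for each subunit and the 3 genes most like it, by genotype and DA; points are libraries. Hspa1a and Hspa1b drop below Il12b in DA-treated M1 WT, Ccrl2, Ahsa1 and F10 stay above Il27, and Ebi3 and its 3 genes lie higher in both M1 DRD5-/- groups than in untreated WT.

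Because dendritic cells also make these cytokines, their markers were read beside the subunits. Of 8 dendritic cell markers, 5 were below 1 FPKM in every library of each M1 group, among them Flt3 (0.15 to 0.39 FPKM over the M1 libraries), Zbtb46 (0.45 to 0.62 FPKM) and Clec9a (0.21 to 0.48 FPKM), and Cd209a was at 0 to 0.06 FPKM. The summed level of the list was 42.25 to 44.70 FPKM in untreated M1 WT, 24.60 to 25.83 FPKM with DA, 44.87 to 45.93 FPKM in untreated M1 DRD5-/- and 43.91 to 47.28 FPKM in DA-treated M1 DRD5-/- BMDMs. Most of it was Ccr7, a chemokine receptor of mature dendritic cells that activated macrophages can also express, at 36.86 ± 1.11 FPKM in untreated M1 WT and 20.10 ± 0.533 FPKM with DA (log2 change -0.84 ± 0.037, SE, adjusted p = 3.68e-10). Of the 3 dendritic cell markers tested, 2 were called lower with DA in M1 WT, Ccr7 and Xcr1, beside 9.60% of all tested genes. Xcr1, a receptor of cross-presenting dendritic cells, went from 1.67 to 0.93 FPKM (log2 change -0.46, adjusted p = 0.00094), a call that scaling removed. Itgax, the integrin CD11c, was at 3.65 FPKM without and 2.98 FPKM with DA (log2 change -0.22, adjusted p = 0.0084) and did not pass. The 7 neutrophil markers summed to 36.11 to 46.21 FPKM in untreated M1 WT and 56.80 to 70.17 FPKM with DA, against 14.54 to 18.16 and 17.32 to 19.93 FPKM in DRD5-/- BMDMs, with Ly6g, a defining marker, at 0.33 FPKM or lower in every M1 library. The 7 macrophage markers summed to 7247 to 7360 FPKM in untreated M1 WT and 7923 to 7993 FPKM with DA. The part of other cells in the levels of Il12b, Il27 and Ebi3 was not tested, and in these bulk libraries fewer expressing cells and less RNA per cell cannot be told apart.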

How the data were processed

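RNA was measured in 24 libraries of mouse BMDMs, 3 in each of 8 groups of genotype, stimulus and DA. Per the labels, the authors sequenced on a BGISEQ-500, mapped filtered reads with HISAT2 and normalized to FPKM; the submitters' processing notes list Bowtie2 2.2.5. The build was GRCm38. The deposited FPKM have 2 decimals and were used as they stood. No counts were used, so depth is known only relatively and precision rests on the spread of 3 libraries.

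M1 and M2 were fitted apart, each with 4 group means over 12 libraries, by limma (version 3.58.1 under R 4.3.3) with an intensity trend. Values entered as log2(FPKM + 1), for genes with 1 FPKM in at least 3 libraries. P-values were Benjamini-Hochberg adjusted over all tested genes. On simulated data, 87 of 100 genes changed by 0.5 (log2) and 100 of 100 changed by 1 were called in DA against untreated M1 WT over 10040 genes, with 0 false calls. In M2 WT these were 87 of 100 and 96 of 100. The changed genes were drawn only from those with a mean above the filter level, with independent normal noise. Recovery of genes near 1 FPKM was thus not measured. The members and lists were chosen with earlier results of these data known. Named were the 5 subunits, up to 6 called genes per list and comparison, and the 3 genes most like each subunit. Alternatives were a pseudocount of 0.1, no filter, median-of-ratios scaling, a replicate block, the compared groups alone, an adjusted p of 0.05 and leaving out each library. Tables and figures used Python 3.11.15 with pandas 2.3.3 and matplotlib 3.10.9. One single-gene result is not reported here.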

Additional observations from a re-analysis of the deposited data

Results flagged for a closer look

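The effect of DA differed between WT and DRD5-/- BMDMs for genes tied to the subunits, by limma's test of the difference of the 2 effects, which is WT minus DRD5-/- on the log2 scale. For each list the gene with the largest called difference is given. In M1 these were Batf, an activator (-0.84 ± 0.060, SE, adjusted p = 1.82e-07), Socs3, an inhibitor (-0.57 ± 0.033, adjusted p = 2.12e-08), the relative Il6 (-0.71, adjusted p = 9.55e-05) and the IL-12 transducer Stat4 (-0.61 ± 0.103, adjusted p = 0.00048). All 4 were lower in the 3 DA-treated WT libraries than in the other 9. The Stat4 call was lost with scaling, without the filter, with the replicate block and without 8 of the 12 libraries in turn, and the Il6 call was lost without the filter. For Il6 the study itself reports this contrast between the genotypes from these data, so its p is no independent support.

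In M2 they were Stat3 (-0.92 ± 0.044, SE, adjusted p = 3.40e-10), Nfkbiz (-1.06 ± 0.093, adjusted p = 1.91e-07), Bcl3 (-1.15 ± 0.118, adjusted p = 9.94e-07) and Il6ra (-0.95 ± 0.075, adjusted p = 5.94e-08), an IL-6 receptor chain. The background of calls is 8.38% of tested genes in M1 and 43.2% in M2, so a gene called in M2 shares its call with a large part of the tested genes. What these differences stem from was not tested.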

How the results depend on the processing

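The files give no counts, so the precision of FPKM near 0 is unknown and rests on 3 libraries a group. The falls described for Il12b, Il27 and Ebi3 in M1 kept their direction in every alternative run. With a pseudocount of 0.1 the Il12b differences in M1 were -2.13 (DA in WT), -2.02 (DA-treated genotypes) and -2.13 (difference of effects). With median-of-ratios scaling they were -1.87, -1.77 and -1.87 for Il12b, -1.06, -0.99 and -0.93 for Il27 and -0.42, -0.59 and -0.40 for Ebi3, and the ratios of Ebi3 in M1 to M2 were 7.74, 5.21, 9.55 and 9.34. Scaling shifted the median of all genes by less than 0.1. Ebi3 between DA-treated M2 genotypes ranged from 0.22 to 0.31 when 1 library was left out, and passed only without DA-treated WT replicate 2.

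The number of genes called between untreated M1 genotypes was 94. It was 43 without the filter, 202 at an adjusted p of 0.05 and 36 to 94 without 1 library, with 36 and 57 without untreated DRD5-/- replicates 2 and 3 and 45 without untreated WT replicate 3. At an adjusted p of 0.05 it was 719 for DA in M2 DRD5-/-, 895 between untreated M2 genotypes and 1836 for the difference of effects in M1. Other counts stayed within 1.5 times. Of 154 calls in the related lists, scaling removed 14 and turned none. Replicate numbers did not pair the libraries: the mean correlation of same-numbered deviations was -0.021 in M1 and -0.016 in M2. A replicate block gave 1359 calls for DA in M1 WT in place of 1439, left 0 in M1 DRD5-/-, and put no subunit past the threshold that was not.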

Other observations

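Markers of neutrophils differed between the genotypes in M1 BMDMs, with or without DA. S100a9, a calcium-binding protein of granulocytes and monocytes, averaged 13.60 FPKM in untreated WT and 0.54 FPKM in untreated DRD5-/- BMDMs (log2 difference -3.24 ± 0.202, SE, adjusted p = 5.22e-07), and 14.94 and 0.607 FPKM with DA. Camp, an antimicrobial peptide, averaged 2.56 and 0.26 FPKM untreated (adjusted p = 3.59e-06), Retnlg 1.07 and 0 FPKM (adjusted p = 0.00015) and S100a8 24.99 and 15.26 FPKM (adjusted p = 0.00014). The summed level of the 7 markers was 36.11 to 46.21 FPKM in untreated WT and 14.54 to 18.16 FPKM in untreated DRD5-/- libraries. Il12b, Il27 and Ebi3 in untreated DRD5-/- BMDMs were at 92.4%, 103.6% and 113.3% of the untreated WT mean.

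Stromal markers were present in M2 and low in M1, with sums of 80.14 to 129.4 FPKM and 4.37 to 5.12 FPKM over 6 genes. Dcn, a matrix proteoglycan, led them in M2, at 75.15 FPKM in untreated WT, 43.29 FPKM in DA-treated WT, 42.54 FPKM in untreated DRD5-/- and 49.41 FPKM in DA-treated DRD5-/- BMDMs. With DA in WT, 4 of the 6 genes were called, 2 lower and 2 higher, with a median log2 change of 0.08. Dcn and Pdgfra fell (log2 changes -0.78 and -0.83, adjusted p = 1.05e-11 and 1.87e-08), while the collagen genes Col1a1 and Col3a1 rose by 0.29 and 0.30 (adjusted p = 8.36e-05 and 2.61e-05). Col1a1, Col1a2 and Col3a1 were highest in DA-treated M2 WT, at 23.37, 25.86 and 8.79 FPKM, as was Ebi3. The part of stromal cells in the Ebi3 level of M2 was not tested.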
